A study of Mus musculus with 6 samples.

Results

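Selenocysteine is built on its own transfer RNA and is then inserted at UGA codons that would otherwise end translation. The 9 mouse genes described here encode the proteins that carry out this synthesis and insertion. They are Sars, Pstk, Sepsecs, Sephs1, Sephs2, Trnau1ap, Secisbp2, Secisbp2l and Eefsec. They were chosen by name: every probe, other than control spots, whose transcript accession belongs to 1 of the 9 genes was taken. This gave 13 of the 39429 probes on the array. Sars, Pstk, Sepsecs, Sephs2, Secisbp2l and Eefsec have 1 probe each, Sephs1 and Secisbp2 have 2, and Trnau1ap has 3.

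The hypothalamus of male mice of the C57BL/6J strain, 16 weeks old, was profiled on 6 one-colour arrays, 2 for each of 3 genotypes. Trsp-RIPKO mice were TrspFlox/Flox::RIP-Cre, Trsp-Ins1KO mice were TrspFlox/Flox::Ins1-Cre, and TrspFF mice were TrspFlox/Flox with no Cre named, so all 3 groups carried floxed alleles of Trsp, the gene of the selenocysteine transfer RNA. RIP-Cre is driven by the rat insulin promoter, which is active in pancreatic beta cells and also in some hypothalamic neurons. Ins1-Cre is driven from the mouse Ins1 gene and is used as a beta-cell driver. The RNA came from hypothalamic tissue and not from sorted cells, so a lower level can mean fewer cells of a type or less RNA per cell, and these cannot be told apart. The labels do not say whether the 2 arrays of a genotype came from separate animals, so a p-value here refers to the spread between arrays, which may be technical.

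In the pathway, seryl-tRNA synthetase loads the selenocysteine transfer RNA with serine, the kinase encoded by Pstk phosphorylates that serine, and the synthase encoded by Sepsecs exchanges the phosphate for selenium. The selenium donor, selenophosphate, is made by the product of Sephs2, which is itself a selenoprotein. At the ribosome, SECIS-binding protein 2 holds the SECIS stem-loop in the 3' untranslated region of a selenoprotein mRNA, and the elongation factor encoded by Eefsec delivers the loaded transfer RNA. The comparisons below address whether the transcripts of this machinery differed between TrspFlox/Flox mice with either Cre driver and those with no Cre named.

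The 2 TrspFF arrays lie on 1 slide and scan and the 4 knockout arrays on another, so for the comparisons with TrspFF slide and genotype cannot be told apart. In the deposited value table, the columns named for Trsp-RIPKO hold the values of the scanner files named for Trsp-Ins1KO, and the reverse. The correlation over 39311 probes was 0.99997 to 0.99998 for the exchanged columns, and -0.225 and -0.202 for the columns of the same name. The labels do not settle which naming is right. The names of the scanner files are used here, and with the other naming the knockouts trade places and the sign of the difference between them turns. The 75th percentile of the processed signal was 1857.98 and 2136.73 on the Trsp-RIPKO arrays, 1735.84 and 1929.66 on the Trsp-Ins1KO arrays, and 1390.86 and 1720.1 on the TrspFF arrays. Between 68.9% and 72.0% of probes were well above background on an array, and 0 probes were saturated. Trsp itself had 0 probes, so its loss was not checked here. Of 12 hypothalamic neuropeptide genes, 11 were measured well above background on every array, Pomc among them.

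The transcripts of the machinery were present in all 3 genotypes: all 13 probes were well above background on all 6 arrays. A level here is log2 of the background-subtracted signal relative to the 75th percentile of its array, so 0 is that percentile and a negative level lies below it. Levels of different probes are not comparable, and each gene is read across arrays at its brightest probe. Secisbp2l had the lowest difference from TrspFF and Eefsec the highest, in Trsp-RIPKO and in Trsp-Ins1KO hypothalamus. No member passed the adjusted p threshold of 0.05 (limma, Benjamini-Hochberg over 28064 probes) in any of the 3 comparisons.

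In Trsp-RIPKO against TrspFF, 0 of 9 members passed, where 1.49% of all tested probes did. At an unadjusted p under 0.05, 2 members were higher (Sars and Eefsec) and 1 was lower (Secisbp2l), against 9.33% and 14.5% of all probes. The arrays of the groups did not overlap for 4 members that were higher and 3 that were lower, beside 27.4% and 30.7% of all probes. The median difference of the 9 members was 0.10 (log2), beside -0.019 for all probes.

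In Trsp-Ins1KO against TrspFF, 0 of 9 members passed, where 1.66% of all tested probes did. At an unadjusted p under 0.05, 3 members were higher (Sars, Pstk and Eefsec) and 2 were lower (Sephs1 and Secisbp2l), against 12.7% and 13% of all probes. Groups did not overlap for 4 higher and 3 lower members, beside 30.8% and 27.3% of all probes. The median difference was 0.039, beside 0.016 for all probes. Both comparisons use the same 2 TrspFF arrays, so their likeness is not a second observation.

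In Trsp-RIPKO against Trsp-Ins1KO, 0 of 9 members passed, where 0.0143% of all tested probes did. Sephs1 was the 1 member past an unadjusted p of 0.05, and it was higher in Trsp-RIPKO. Of all probes 7.77% were higher and 10.4% lower at that p. Groups did not overlap for 1 higher and 2 lower members, beside 23% and 35.1% of all probes. The median difference was 0.027, beside -0.046 for all probes.

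**Figure D1:**
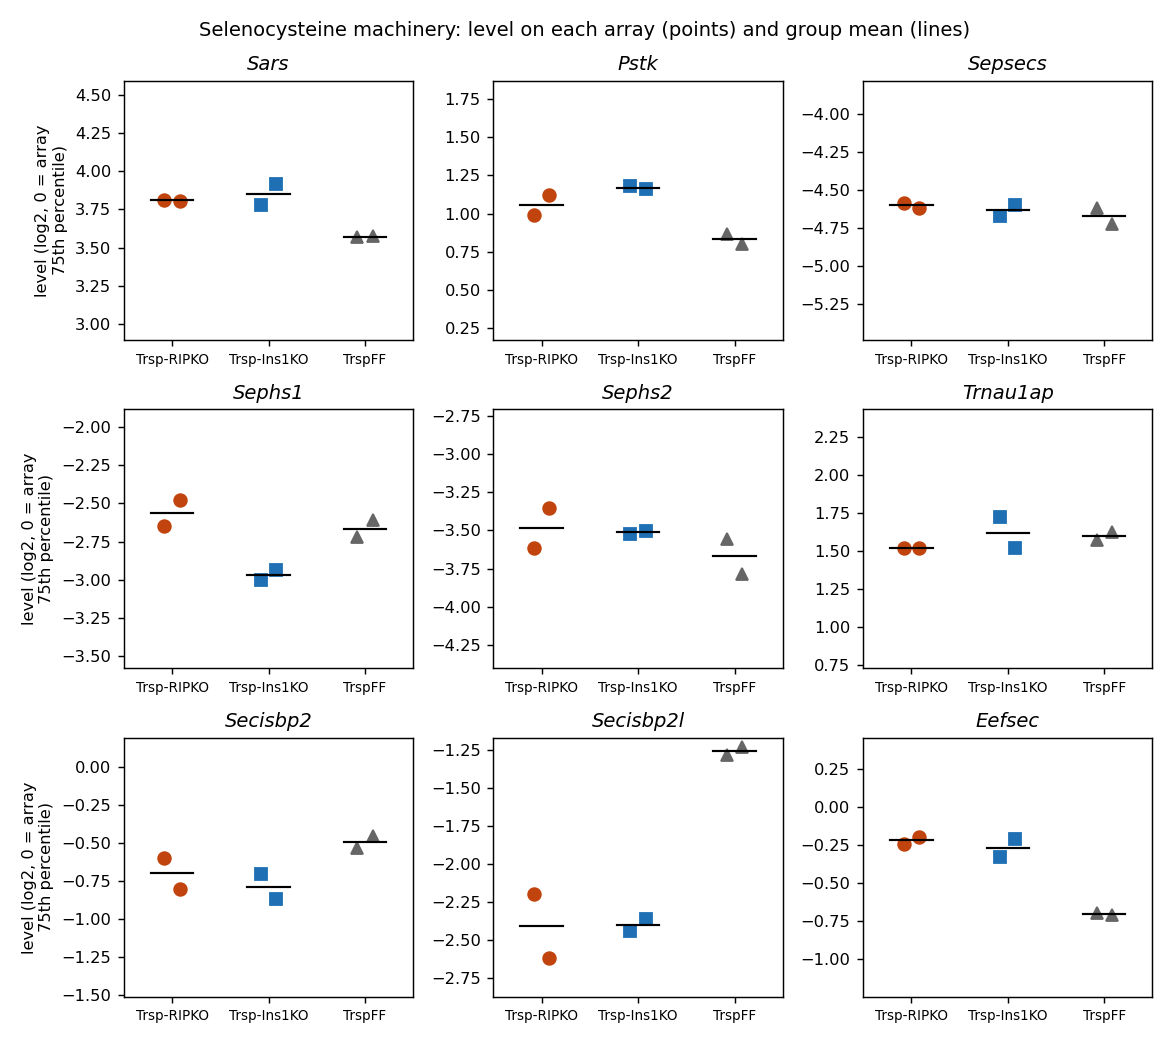
Level of the brightest probe of each of the 9 genes on each array (vertical axis, log2, 0 = the 75th percentile of the array). Each panel is centred on its gene and spans the same range, points are arrays, and lines are the means of 2 arrays. In the Secisbp2l panel all 4 knockout points lie between -2.62 and -2.20, below the TrspFF points at -1.29 and -1.24. In the Eefsec panel the knockout points lie above the TrspFF points.

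Sars encodes the cytosolic seryl-tRNA synthetase, which charges serine transfer RNAs as well as the selenocysteine transfer RNA. Its level was 3.81 and 3.81 in Trsp-RIPKO, 3.78 and 3.92 in Trsp-Ins1KO, and 3.57 and 3.58 in TrspFF. All 4 knockout arrays lay above both TrspFF arrays, and the knockouts overlapped. Sars was higher than TrspFF by 0.24 ± 0.088 in Trsp-RIPKO (moderated SE, 2 arrays a group), a fold of 1.18, with an adjusted p of 0.199. In Trsp-Ins1KO it was higher by 0.28 ± 0.088, a fold of 1.21, with an adjusted p of 0.147. The knockouts differed by -0.040 (95% interval -0.27 to 0.19).

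The list of 19 other cytosolic aminoacyl-tRNA synthetases sets Sars among enzymes that load other amino acids. In each comparison 0 of the 19 passed the threshold. Their median difference was 0.028 in Trsp-RIPKO against TrspFF, 0.027 in Trsp-Ins1KO against TrspFF and -0.046 in Trsp-RIPKO against Trsp-Ins1KO. Eprs, which loads glutamate and proline, was -1.25 and -1.12 in Trsp-RIPKO, -0.97 and -0.96 in Trsp-Ins1KO, and -0.29 and -0.56 in TrspFF. Its differences from TrspFF were -0.76 (adjusted p 0.0639) and -0.54 (adjusted p 0.0944), in the direction opposite to Sars. Aars, which loads alanine, was higher by 0.34 in Trsp-RIPKO (adjusted p 0.106) and by 0.40 in Trsp-Ins1KO (adjusted p 0.0799). Cars, which loads cysteine, was higher by 0.18 in Trsp-RIPKO, and Nars, which loads asparagine, differed by -0.37 in Trsp-Ins1KO.

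Pstk encodes the kinase that phosphorylates the serine on the selenocysteine transfer RNA. Its level was 0.99 and 1.12 in Trsp-RIPKO, 1.18 and 1.16 in Trsp-Ins1KO, and 0.87 and 0.80 in TrspFF. The groups did not overlap, in the order Trsp-Ins1KO, Trsp-RIPKO, TrspFF. Pstk differed from TrspFF by 0.23 ± 0.090 in Trsp-RIPKO (adjusted p 0.218) and by 0.34 ± 0.090 in Trsp-Ins1KO (fold 1.26, adjusted p 0.116). Trsp-RIPKO differed from Trsp-Ins1KO by -0.11 (95% interval -0.35 to 0.12), so these neighbours did not differ beyond their error.

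Sepsecs encodes the synthase that finishes selenocysteine on the transfer RNA. Its level was -4.58 and -4.62 in Trsp-RIPKO, -4.67 and -4.60 in Trsp-Ins1KO, and -4.62 and -4.72 in TrspFF. The Trsp-Ins1KO and TrspFF arrays overlapped, and the Trsp-RIPKO arrays lay at or just above the higher TrspFF array. The differences from TrspFF were 0.071 ± 0.087 in Trsp-RIPKO and 0.039 ± 0.087 in Trsp-Ins1KO. The 95% intervals of these differences were -0.15 to 0.30 and -0.19 to 0.26.

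Sephs2 makes selenophosphate, and Sephs1 encodes its paralogue, which has no selenocysteine and is not thought to make selenophosphate. Sephs2 was at -3.62 and -3.36 in Trsp-RIPKO, -3.52 and -3.50 in Trsp-Ins1KO, and -3.55 and -3.79 in TrspFF. The Trsp-RIPKO arrays overlapped those of TrspFF, and the Trsp-Ins1KO arrays lay just above them. The differences from TrspFF were 0.18 ± 0.135 in Trsp-RIPKO and 0.16 ± 0.135 in Trsp-Ins1KO (adjusted p 0.444 and 0.493). The brightest Sephs1 probe was at -2.65 and -2.48 in Trsp-RIPKO, -3.00 and -2.94 in Trsp-Ins1KO, and -2.72 and -2.61 in TrspFF. Trsp-Ins1KO was the low group, below all other arrays, while Trsp-RIPKO overlapped TrspFF.

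For that Sephs1 probe Trsp-RIPKO minus Trsp-Ins1KO was 0.40 ± 0.10 (95% interval 0.14 to 0.67, p 0.0114, adjusted p 0.265). Trsp-Ins1KO differed from TrspFF by -0.30 (adjusted p 0.159) and Trsp-RIPKO by 0.099 (adjusted p 0.579). The other Sephs1 probe did not show this separation. It was at -3.08 and -2.89 in Trsp-RIPKO, -3.16 and -2.96 in Trsp-Ins1KO, and -3.14 and -3.19 in TrspFF, and the knockouts differed by 0.075 ± 0.12. Several marker lists of other cell types also separated Trsp-Ins1KO from the other arrays. The summed signal of 8 endothelial markers, in units of the 75th percentile, was 8.53 to 9.01 in Trsp-RIPKO, 5.17 to 5.71 in Trsp-Ins1KO and 6.41 to 8.47 in TrspFF. All 8 were higher in Trsp-RIPKO than in Trsp-Ins1KO, 6 of them at an unadjusted p under 0.05 and 0 past the threshold. The summed signal of 12 choroid plexus markers was 91.8 to 105.6 in Trsp-RIPKO and 88.9 to 140.9 in TrspFF. In Trsp-Ins1KO it was 75.8 on replicate 1 and 18.6 on replicate 2. Of the 12, 11 were higher in Trsp-RIPKO than in Trsp-Ins1KO, 9 without overlap, and 1 was lower, with overlap. Of all probes, 23% were higher and 35.1% lower without overlap in that comparison. The summed signal of the 11 measured neuropeptide genes was 89.6 to 113.9 in Trsp-RIPKO, 163.1 to 165.1 in Trsp-Ins1KO and 93.2 to 101.7 in TrspFF. Of these genes, 9 were lower in Trsp-RIPKO than in Trsp-Ins1KO, 5 without overlap, and 2 were higher, 1 without overlap. Such sums weigh the brightest genes of a list most. The summed signal of 8 cortex and hippocampus markers split the arrays in another way, with Trsp-RIPKO highest. It was 5.42 to 6.40 in Trsp-RIPKO, 0.94 to 3.25 in Trsp-Ins1KO and 2.45 to 4.64 in TrspFF. Of the 8, 7 were higher in Trsp-RIPKO than in Trsp-Ins1KO, all 7 without overlap, and 1 was lower. The part of these lists in the Sephs1 difference was not tested.

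Trnau1ap encodes a protein that associates with the selenocysteine transfer RNA. Its brightest probe was at 1.52 and 1.52 in Trsp-RIPKO, 1.72 and 1.52 in Trsp-Ins1KO, and 1.58 and 1.62 in TrspFF. The Trsp-RIPKO arrays lay below both TrspFF arrays, and the Trsp-Ins1KO arrays spanned those of TrspFF, with a difference of 0.022 ± 0.10. Trsp-RIPKO differed from TrspFF by -0.081 ± 0.10 at that probe and by 0.053 and 0.11 at the other 2 probes. At those 2 probes Trsp-Ins1KO differed from TrspFF by 0.21 and 0.17. Adjusted p over the 3 probes and both comparisons with TrspFF lay between 0.324 and 0.906.

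**Figure D2:**
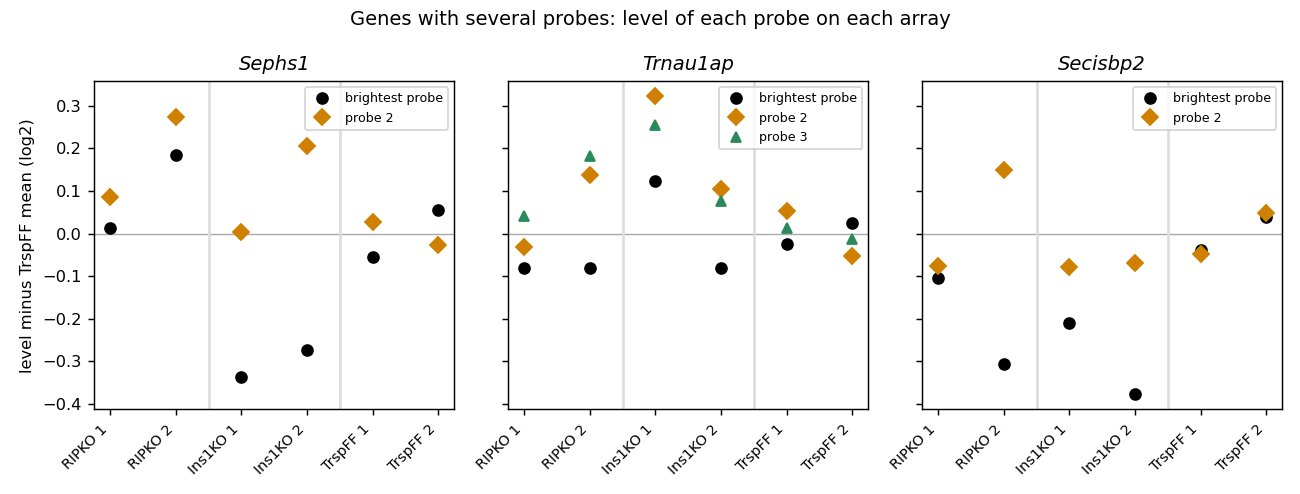
Level of each probe minus its own TrspFF mean (vertical axis, log2) on each array, for the 3 genes with several probes. Marker shape gives the probe. The brightest Sephs1 probe is low on both Trsp-Ins1KO arrays while the other Sephs1 probe is not, and the brightest Secisbp2 probe is lower on the knockout arrays than its other probe.

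Secisbp2 and Secisbp2l encode paralogous proteins. SECISBP2 binds the SECIS element and is needed for insertion of selenocysteine, and the role of SECISBP2L is less settled. The brightest Secisbp2 probe was at -0.60 and -0.80 in Trsp-RIPKO, -0.71 and -0.87 in Trsp-Ins1KO, and -0.54 and -0.46 in TrspFF. All knockout arrays lay below both TrspFF arrays. The differences were -0.21 ± 0.12 in Trsp-RIPKO (adjusted p 0.34) and -0.29 ± 0.12 in Trsp-Ins1KO (adjusted p 0.201).

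The other Secisbp2 probe was at -2.01 and -1.78 in Trsp-RIPKO, -2.01 and -2.00 in Trsp-Ins1KO, and -1.98 and -1.88 in TrspFF. Its differences from TrspFF were 0.037 and -0.074, so the probes of the gene do not share a direction in Trsp-RIPKO.

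Secisbp2l had the largest difference among the members. Its level was -2.20 and -2.62 in Trsp-RIPKO, -2.44 and -2.36 in Trsp-Ins1KO, and -1.29 and -1.24 in TrspFF. All 4 knockout arrays lay below both TrspFF arrays, and the knockouts overlapped. Trsp-RIPKO was at 0.452 times the TrspFF level, a difference of -1.15 ± 0.16 (95% interval -1.56 to -0.74), with p 0.000839 and an adjusted p of 0.052. Trsp-Ins1KO was at 0.454 times the TrspFF level, a difference of -1.14 ± 0.16 (95% interval -1.55 to -0.73), with p 0.000864 and an adjusted p of 0.0508. A difference at least as low was found for 2.37% and 2.34% of all tested probes in these comparisons. The knockouts differed by -0.0073 (95% interval -0.42 to 0.40).

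The adjusted p of Secisbp2l lies next to the threshold, and the call depends on the processing. Over 17 alternatives for each comparison it ranged between 0.0267 and 0.192 in Trsp-RIPKO and between 0.0273 and 0.182 in Trsp-Ins1KO. It was under 0.05 with normexp background correction (0.03 and 0.0285), with probes well above background on all 6 arrays (0.038 and 0.0384) and with a variance trend and robust fit (0.0267 and 0.0273). In Trsp-Ins1KO it was also under 0.05 with 1 value per gene, taken as the brightest probe (0.0497) or the mean (0.0499). The difference was negative in every one of these alternatives.

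Markers of the striatum, a neighbouring tissue, were low on the same 4 arrays as Secisbp2l. All 8 were above background on each array and lower in both knockouts without overlap. Of all probes, 30.7% were lower without overlap in Trsp-RIPKO and 27.3% in Trsp-Ins1KO. These 4 arrays also share a slide, so slide and genotype cannot be told apart here. The summed signal of the 8 markers, in units of the 75th percentile, was 8.56 to 8.76 in Trsp-RIPKO, 7.76 to 7.99 in Trsp-Ins1KO and 11.1 to 14.7 in TrspFF. Gpr6, a receptor of striatal neurons, fell by 0.78 in Trsp-RIPKO (adjusted p 0.0314) and by 0.58 in Trsp-Ins1KO (adjusted p 0.0492). Adora2a, the adenosine receptor of striatal projection neurons, fell by 2.41 in Trsp-Ins1KO (adjusted p 0.0392), and its difference in Trsp-RIPKO was -1.76 (adjusted p 0.0652). The summed signal of 8 oligodendrocyte markers overlapped between Trsp-RIPKO and TrspFF and was lower in Trsp-Ins1KO. It was 176 to 196 in Trsp-RIPKO, 145 to 166 in Trsp-Ins1KO and 176 to 212 in TrspFF. The striatal list separates the knockout arrays from TrspFF, as the brightest probes of Sars, Pstk, Secisbp2 and Eefsec do as well. Of these genes, Secisbp2 was lower in the knockouts, and Sars, Pstk and Eefsec were higher. The part of either list in any of these differences was not tested.

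The 3 genes whose levels, centred over the 6 arrays, lay nearest to those of Secisbp2l were Tcp10c, Frmd5 and Btnl2, at root mean square differences of 0.083, 0.089 and 0.091. Frmd5 was at -0.18 and -0.49 in Trsp-RIPKO, -0.26 and -0.38 in Trsp-Ins1KO, and 0.74 and 0.68 in TrspFF. These genes were found by their likeness, so their pattern is a description.

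Eefsec encodes the elongation factor that carries the selenocysteine transfer RNA to the ribosome. Its level was -0.24 and -0.20 in Trsp-RIPKO, -0.33 and -0.21 in Trsp-Ins1KO, and -0.70 and -0.71 in TrspFF. All 4 knockout arrays lay above both TrspFF arrays, and the knockouts overlapped. Trsp-RIPKO was higher than TrspFF by 0.49 ± 0.086, a fold of 1.40 (95% interval of the difference 0.26 to 0.71), with an adjusted p of 0.073. Trsp-Ins1KO was higher by 0.43 ± 0.086, a fold of 1.35 (95% interval 0.21 to 0.66), with an adjusted p of 0.0799. A difference at least as high was found for 5.27% and 7.82% of all tested probes. With the variance trend and robust fit the adjusted p was 0.0434 in Trsp-RIPKO and 0.0467 in Trsp-Ins1KO, the lowest over 17 alternatives, in which it reached 0.346 and 0.269. The 8 striatal markers given beside Secisbp2l separate the same arrays in the opposite direction, lower in both knockouts. Their part in the Eefsec difference was not tested.

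In the list of 8 general elongation and termination factors, 0 passed the threshold in each comparison. The median difference was 0.066 in Trsp-RIPKO against TrspFF, 0.17 in Trsp-Ins1KO against TrspFF and -0.11 in Trsp-RIPKO against Trsp-Ins1KO. At the brightest probes Eef1b2, an exchange factor for the general elongation factor, had the smallest p against TrspFF. It was higher by 0.18 in Trsp-RIPKO (adjusted p 0.282) and by 0.37 in Trsp-Ins1KO (adjusted p 0.101). The other Eef1a1 probe differed by -0.35 in Trsp-RIPKO (adjusted p 0.107) and by -0.31 in Trsp-Ins1KO (adjusted p 0.112). The brightest Eef1a1 probe differed by 0.032 and 0.13. Eef2, which moves the ribosome along the mRNA, was higher by 0.24 in Trsp-Ins1KO (adjusted p 0.175), and Gspt1, a termination factor, by 0.33 (adjusted p 0.147), although the other Gspt1 probe differed by -0.11 there (adjusted p 0.465).

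**Figure D3:**
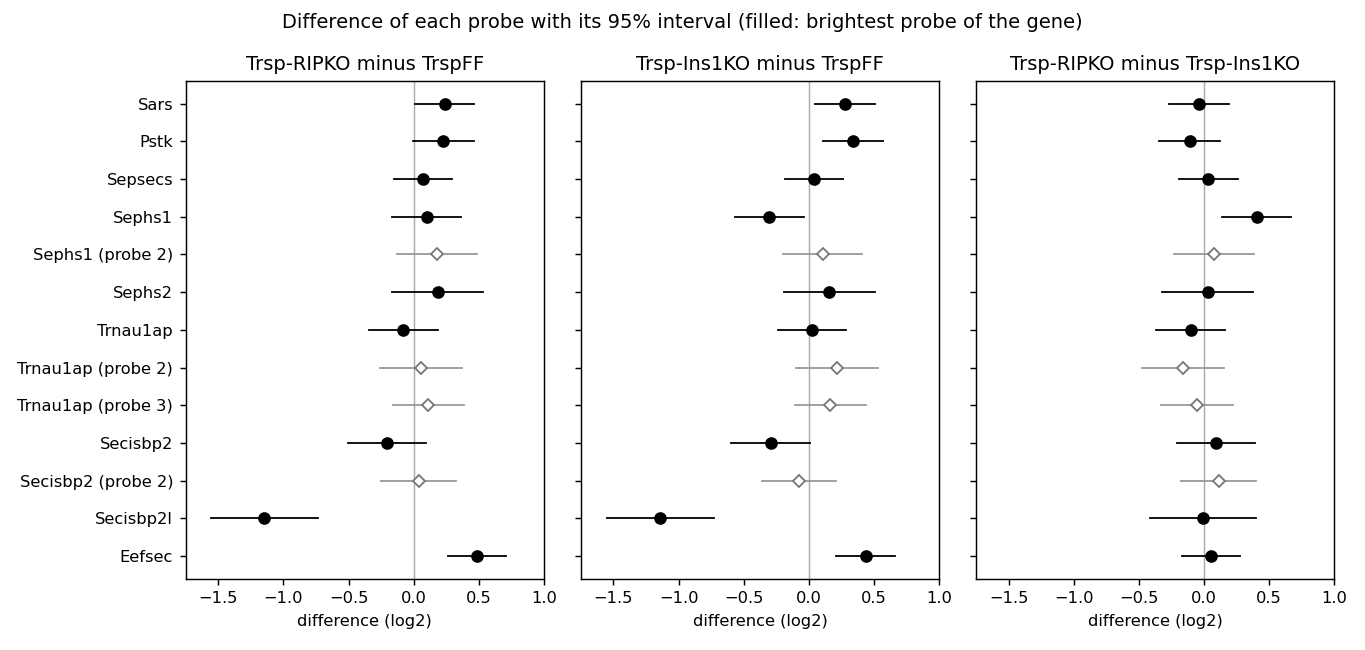
Difference of each of the 13 probes (horizontal axis, log2) with its 95% interval, for the 3 comparisons. Filled points are the brightest probe of a gene and open points its other probes. The Secisbp2l intervals against TrspFF end at -0.74 and -0.73, and the Eefsec intervals against TrspFF start at 0.26 and 0.21.

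The promoters of the members with the lowest and the highest difference, and of the SECIS-binding paralogue Secisbp2, are given here as context for the transcripts that separated most. Each is the 250 bases before the annotated start, 5' to 3' on the strand of the gene, from RefSeq, build GRCm38.p6. Capitals mark the letters of the GC box, GGGCGG, of the CCAAT box and of the E-box, CACGTG, on either strand. Secisbp2l lies on the minus strand (chr2:125782871-125783120), Eefsec on the minus strand (chr6:88446540-88446789) and Secisbp2 on the plus strand (chr13:51651458-51651707).
Secisbp2l: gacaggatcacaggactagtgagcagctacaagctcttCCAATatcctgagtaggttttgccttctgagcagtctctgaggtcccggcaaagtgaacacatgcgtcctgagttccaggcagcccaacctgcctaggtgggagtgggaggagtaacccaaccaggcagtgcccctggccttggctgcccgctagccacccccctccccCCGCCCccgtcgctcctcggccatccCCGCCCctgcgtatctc
Eefsec: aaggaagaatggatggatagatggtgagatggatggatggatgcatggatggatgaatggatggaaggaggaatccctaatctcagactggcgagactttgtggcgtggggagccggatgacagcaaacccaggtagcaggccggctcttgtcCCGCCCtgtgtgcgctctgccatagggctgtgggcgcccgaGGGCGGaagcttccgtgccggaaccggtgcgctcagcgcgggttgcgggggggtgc
Secisbp2: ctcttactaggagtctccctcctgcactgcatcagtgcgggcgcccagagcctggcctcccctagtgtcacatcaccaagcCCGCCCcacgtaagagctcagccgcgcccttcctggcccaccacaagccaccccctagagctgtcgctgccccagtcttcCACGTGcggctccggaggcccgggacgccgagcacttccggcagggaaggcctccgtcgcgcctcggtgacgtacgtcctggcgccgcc
In these promoters 62.4%, 61.6% and 69.2% of the bases are G or C, in the order shown, beside a median of 52.4% over 32851 promoters of the table. The GC box occurs in 32.7% of all these promoters and in 5 of the 9 promoters listed for 8 of the members, including all 3 shown. The CCAAT box occurs in 33.8% of all promoters and, of the members, in Secisbp2l and Sephs2. The E-box occurs in 6.02% of all promoters and, of the members, in Secisbp2 and Sephs2. The antioxidant response element core (TGACNNNGC) was found in 0 of the 9, against 10.2% of all promoters, and the ATF response element (TGATGCAA) in 0 of the 9, against 0.791%. These are letter matches on either strand. The members matched were all but Sepsecs.

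The transcripts of the selenoproteins, whose translation depends on the machinery, were read from a list of 23 genes, of which 22 were kept. In each comparison 0 of 22 passed the threshold. Their median difference from TrspFF was 0.076 in Trsp-RIPKO and 0.20 in Trsp-Ins1KO, and Trsp-RIPKO minus Trsp-Ins1KO was -0.14. At an unadjusted p under 0.05, 3 were higher and 3 were lower in Trsp-RIPKO, and 8 were higher and 0 lower in Trsp-Ins1KO, beside the shares of all probes given above. Gpx2, a glutathione peroxidase, was higher by 0.38 in Trsp-RIPKO (adjusted p 0.0986) and by 0.30 in Trsp-Ins1KO (adjusted p 0.124). Among the brightest probes, Selenov had the largest difference of the list from TrspFF in Trsp-RIPKO, at -0.67 (adjusted p 0.142), without overlap. In Trsp-Ins1KO it differed by -0.24 (adjusted p 0.465) and overlapped TrspFF. The dimmer kept Dio1 probe, well above background on 1 Trsp-RIPKO array, differed by -0.88 in Trsp-RIPKO (adjusted p 0.0547). In Trsp-Ins1KO it differed by -0.54 (adjusted p 0.0989). The brightest Dio1 probe went the other way, by 0.40 and 0.32 (adjusted p 0.264 and 0.33). Selenop, which carries selenium between tissues, was at 4.32 and 4.20 in Trsp-RIPKO, 4.60 and 4.70 in Trsp-Ins1KO, and 4.83 and 4.53 in TrspFF. Its Trsp-RIPKO arrays lay below all others, with differences of -0.42 from TrspFF and -0.39 from Trsp-Ins1KO (adjusted p 0.164 and 0.265). Selenok, a selenoprotein of the endoplasmic reticulum, was higher by 0.40 in Trsp-Ins1KO (adjusted p 0.0847), and by 0.19 at its other probe (adjusted p 0.276). Selenoh, a nuclear selenoprotein, was higher by 0.36 in Trsp-Ins1KO (adjusted p 0.128).

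The largest selenoprotein difference between the knockouts was that of Gpx3, the extracellular glutathione peroxidase. It was at 0.10 and 0.12 in Trsp-RIPKO, 1.30 and 1.44 in Trsp-Ins1KO, and 0.85 and -0.17 in TrspFF. Trsp-RIPKO minus Trsp-Ins1KO was -1.25 ± 0.34 (adjusted p 0.265), and the TrspFF arrays lay far apart. Dio2, which activates thyroid hormone, was at 1.08 and 1.38 in Trsp-RIPKO, 0.61 and 0.81 in Trsp-Ins1KO, and 0.86 and 1.09 in TrspFF. Trsp-RIPKO minus Trsp-Ins1KO was 0.52 ± 0.16 (adjusted p 0.265).

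Among 7 genes for maturation of the transfer RNA and for cofactors at the SECIS element, 0 passed the threshold in each comparison, with medians of 0.019, 0.11 and -0.061 in the order of comparisons above. Trit1, which modifies the base next to the anticodon of the selenocysteine transfer RNA, was at 1.03 and 0.98 in Trsp-RIPKO, 0.91 and 0.95 in Trsp-Ins1KO, and 0.82 and 0.83 in TrspFF. Its differences from TrspFF were 0.18 (adjusted p 0.245) and 0.11 (adjusted p 0.437), with knockout arrays above TrspFF arrays. Its other probe had the opposite direction, with differences of -0.37 (adjusted p 0.216) and -0.25 (adjusted p 0.337) and knockout arrays below TrspFF arrays. Alkbh8, which acts on the wobble base, differed by 0.11 and 0.17 (adjusted p 0.439 and 0.249). The probes of Ncl, also of this list, did not share a direction in Trsp-RIPKO. The brightest differed by 0.084 there (adjusted p 0.551) and the other by -0.46 (adjusted p 0.0951). In Trsp-Ins1KO they differed by -0.0035 and -0.22 (adjusted p 0.982 and 0.247).

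Of 3 genes of selenium supply, 0 passed the threshold. Scly, the lyase that frees selenium from selenocysteine, was at 0.15 and 0.31 in Trsp-RIPKO, 0.36 and 0.48 in Trsp-Ins1KO, and 0.33 and 0.01 in TrspFF. The Trsp-RIPKO arrays lay between the TrspFF arrays and the Trsp-Ins1KO arrays above them, and the differences from TrspFF were 0.062 and 0.25. Lrp8, the receptor that takes up selenoprotein P in brain, differed by -0.080 and -0.044, and Lrp2 by -0.24 and -0.30.

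**Figure D4:**
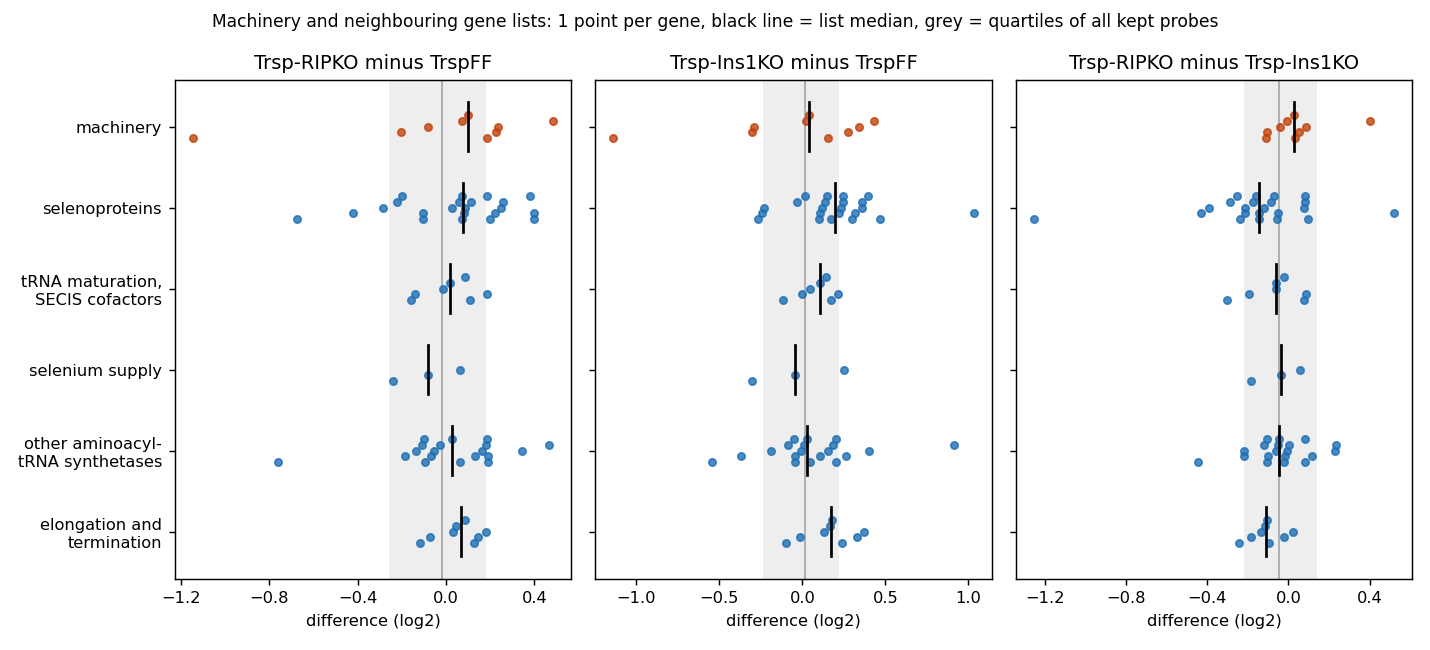
Difference of the brightest kept probe of each gene (horizontal axis, log2), 1 point per gene, for the machinery and the 5 neighbouring lists in the 3 comparisons. Black lines are list medians, and the grey band spans the quartiles of all 28064 tested probes. Against TrspFF, 1 machinery gene, Secisbp2l, stands at -1.15 and -1.14, apart from the other 8.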

How the data were processed

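Hypothalamic total RNA was labelled with Cy3, per the labels' protocols, and read from scans with Agilent Feature Extraction 10.7.3.1, per the file headers, whose annotation follows build mm9. The deposited scanner files give spot intensity, already background-subtracted (the processed signal). The deposited value table holds log2 values, each probe centred to a median of 0. The scaling behind it is not stated in these sources, and its other columns name the probes (deposited identifiers). The column medians of the table are 0.0327 and -0.00963 (TrspFF), 0.051 and -0.0092 (named for Trsp-RIPKO), and -0.0101 and -0.0502 (named for Trsp-Ins1KO).

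Spots of 1 probe (43020 spots, 39429 probes) were averaged without quality-flagged spots, and 118 incomplete probes were left out. Levels are log2 intensity minus the 75th percentile of the array. Probes that both arrays of any 1 group measured well above background were kept (28064). Symbols came from probe accessions through the RefSeq gene table, for 66.1% of probes. R 4.3.3 with limma 3.58.1 (all 6 arrays in lmFit, then eBayes) tested 3 two-sided comparisons, with Benjamini-Hochberg adjustment over all kept probes at 0.05. The fit had 3 residual and 1.92 prior degrees of freedom, 4.92 in total, and a median SE of 0.128. Intervals are 95% intervals of the fit. Figures used Python 3.11.15 with pandas 2.3.3 and matplotlib 3.10.9, and jsonlite 2.0.0 read the labels. The fit was tested on simulated data. The number of arrays limits the precision.

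The members and lists were chosen with earlier results of these data known. All 9 members are named. From each neighbouring list, up to 3 genes with the smallest p in a comparison, or those past the threshold, could be named, as could marker genes past the threshold, Pomc, Ttr and the 3 genes nearest to the member with the smallest p. Alternatives were normexp with an offset of 50, quantile and median scaling, the value table, no filter, a filter on all 6 arrays, 1 value per gene, a variance trend with robust fit, 2 groups alone, a replicate block and leaving out each array. Replicate numbers did not pair the arrays: replicate differences of the genotypes correlated at -0.0129, -0.0166 and 0.0886.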

Additional observations from a re-analysis of the deposited data

How the results depend on the processing

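Of 639 recomputed member differences, 599 kept their direction and side of the threshold, 10 crossed it to an adjusted p under 0.05 (Secisbp2l and Eefsec), 0 lost a call and 30 changed sign. The number of members past the threshold was 1 in each comparison with TrspFF with normexp and with probes well above background on all 6 arrays, 1 in Trsp-Ins1KO against TrspFF with 1 value per gene (brightest probe or mean), and 2 in each comparison with TrspFF with the variance trend and robust fit. Leaving out any array gave 0 members in all comparisons. The cause was not tested. The largest difference that changed sign came to 0.20. With normexp, Sepsecs was -0.024 (Trsp-RIPKO against TrspFF), -0.00099 (Trsp-Ins1KO against TrspFF) and -0.023 (between knockouts), the probes of Trnau1ap were -0.0022 and -0.0016 (Trsp-RIPKO against TrspFF) and -0.0013 (Trsp-Ins1KO against TrspFF). With quantile normalization, Trnau1ap was -0.0046 (Trsp-Ins1KO against TrspFF) and Sars 0.068 (between knockouts). With median scaling, Trnau1ap was 0.028 (Trsp-RIPKO against TrspFF), Secisbp2 0.013 at its other probe (Trsp-Ins1KO against TrspFF) and Secisbp2l 0.015 (between knockouts). With probes averaged per gene, Trnau1ap was 0.028 (Trsp-RIPKO against TrspFF). Median scaling moved the median of all probes to 0.0894 in Trsp-RIPKO and 0.102 in Trsp-Ins1KO, against -0.0195 and 0.0157. Leaving out TrspFF replicate 1 gave -0.012 for Secisbp2 (other probe, Trsp-RIPKO against TrspFF) and -0.0026 for Trnau1ap (Trsp-Ins1KO against TrspFF), and leaving out TrspFF replicate 2 gave -0.011 for Sepsecs (Trsp-Ins1KO against TrspFF; 0.089 without TrspFF replicate 1). Without Trsp-RIPKO replicate 1, Secisbp2 was -0.012 and Trnau1ap (its dimmest probe) 0.018, both between knockouts, where Secisbp2l was -0.22. Without Trsp-RIPKO replicate 2, Secisbp2 (other probe) was -0.077 and Trnau1ap (middle probe) -0.032 in Trsp-RIPKO against TrspFF, and between knockouts Secisbp2 (other probe) was -0.0033, Secisbp2l 0.20, Sephs1 (other probe) -0.019 and Sephs2 -0.10. Without Trsp-Ins1KO replicate 1, Trnau1ap was -0.080 (Trsp-Ins1KO against TrspFF), and between knockouts Eefsec was -0.0057, Sepsecs -0.0038, Sephs1 (other probe) -0.026 and Trnau1ap (dimmest probe) 0.035. Without Trsp-Ins1KO replicate 2, Secisbp2l was 0.030, Sars 0.027, Sepsecs 0.069 and Trnau1ap (dimmest probe) -0.14 between knockouts.

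The count of all probes past the threshold, which the members are read against, was less stable than the member differences. It was 417 in Trsp-RIPKO against TrspFF, 466 in Trsp-Ins1KO against TrspFF and 4 between knockouts. With normexp the last 2 were 753 and 1. With median scaling the first was 210. Without a filter they were 0, 28 and 0, with the all-array filter the last was 2, and with the trend and robust fit they were 1016, 1600 and 1. With 2 groups alone they were 0, 0 and 385. With the replicate block limma called 0, 0 and 0 probes, and the block changed no member call. Leaving out 1 array gave 0 to 526, 0 to 537 and 0 to 385. The count in Trsp-RIPKO against TrspFF was 35 when Trsp-RIPKO replicate 1 was left out, and 0 when TrspFF replicate 1, Trsp-RIPKO replicate 2, Trsp-Ins1KO replicate 1 or Trsp-Ins1KO replicate 2 was. The count in Trsp-Ins1KO against TrspFF was 1 when Trsp-Ins1KO replicate 2 was left out, and 0 when TrspFF replicate 2, Trsp-Ins1KO replicate 1, Trsp-RIPKO replicate 1 or Trsp-RIPKO replicate 2 was. Between knockouts the count was 385 when a TrspFF array was left out, 29 for Trsp-RIPKO replicate 1, 1 for Trsp-Ins1KO replicate 2, and 0 for Trsp-RIPKO replicate 2 and for Trsp-Ins1KO replicate 1. Where 0 probes were called, between 2008 and 6982 had an unadjusted p under 0.05 in limma. The share of called probes that were lower was 95% and 87.6% against TrspFF, 83.2% and 68.5% with normexp, and 76.5% and 55% with the trend and robust fit.

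List medians, against TrspFF unless stated, took these other values. With normexp, selenium supply was -0.032 in Trsp-RIPKO, and in Trsp-Ins1KO the medians were 0.16 for selenoproteins, 0.19 for transfer RNA maturation and SECIS cofactors, 0.014 for selenium supply and 0.25 for elongation and termination. With quantile normalization the Trsp-Ins1KO medians were 0.12, 0.028 and 0.050 for selenoproteins, maturation and elongation, and between knockouts -0.074 for selenoproteins and -0.017 for elongation. With median scaling, selenoproteins, maturation, supply, synthetases and elongation were at 0.18, 0.13, 0.029, 0.14 and 0.17 in Trsp-RIPKO and at 0.28, 0.19, 0.042, 0.11 and 0.26 in Trsp-Ins1KO. With probes averaged per gene, selenoproteins, maturation, supply and elongation were at 0.043, -0.091, -0.19 and -0.048 in Trsp-RIPKO, and the first 3 at 0.14, 0.051 and -0.15 in Trsp-Ins1KO. Leaving out 1 array gave selenoprotein medians of 0.046 to 0.13 (Trsp-RIPKO), 0.15 to 0.22 (Trsp-Ins1KO) and -0.18 to -0.085 (between knockouts). For maturation they were 0.0053 to 0.078 in Trsp-RIPKO and -0.11 to -0.0069 between knockouts, for supply -0.10 to 0.14 and -0.27 to -0.0033, and for elongation 0.030 to 0.15 and -0.17 to -0.061. Slide and scan could not enter a fit. With 2 arrays a group the median SE of 0.128 limits what differences can pass.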
